A study of Homo sapiens with 6 samples.

Results

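DKK1, a secreted Wnt inhibitor, was described here together with a second Dickkopf gene (DKK3), the Wnt receptor genes FZD4, FZD6, LRP5 and LRP6, the transcription factor genes LEF1 and TCF7L2, and the feedback genes AXIN2 and NKD1. DKK1 was chosen because its level was much higher with 8OH-G miR-483, and the other genes were chosen by their role in the pathway, with results of these data known. Of these 10 genes, 8 had a row among the 18336 distinct gene names, and LEF1 and NKD1 were not analysed here. Because DKK1 was selected on the comparison described below, values of the 8 genes are given as a description, with no p-value. Whether the fit called these genes is likewise a description and not a test of them.

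The libraries came from human umbilical vein endothelial cells (HUVECs), which are primary endothelial cells, on day 2 after lipid transfection. One group of 3 libraries received hsa-miR-483, and the other group of 3 libraries received 8OH-G miR-483, in which guanine is present as the oxidised base 8-oxoguanine, and the labels name neither the arm nor the guanine concerned. The series asks whether this oxidation alters the targets of the microRNA. A scramble control, which the protocol mentions, was not analysed here, so a difference may come from either form of the microRNA. Both groups had the same vendor, culture medium and transfection reagent in the labels, which do not say if libraries of 1 group are from separate cultures, so test results measure the spread between these libraries only.

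Wnt proteins are secreted lipid-modified ligands that bring a frizzled receptor together with the coreceptor LRP5 or LRP6. In the canonical branch this halts the complex of axin, APC and the kinase GSK3 that marks beta-catenin for destruction, and beta-catenin then acts with TCF and LEF factors in the nucleus. Dickkopf 1 binds LRP5 and LRP6 and blocks canonical signalling, and in endothelium the pathway is known for its part in vessel growth and in the barrier of brain and retinal vessels.

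Values are FPKM, fragments scaled by gene length and library size, a unit that was inferred from the numbers. Total FPKM per library was 1396537 to 1440422 with miR-483 and 1598260 to 1687283 with 8OH-G miR-483, and read depth is unknown. The median over names that occur once was 3.77 FPKM in each miR-483 library and 4.25 to 4.31 FPKM with 8OH-G miR-483. Mitochondrial transcripts took 71.3% to 76.6% of the total. Every row counts in these totals, so a repeated name counts more than once. The 8 endothelial markers checked were all present, with a summed level of 1693 to 1756 FPKM with miR-483 and 922 to 1113 FPKM with 8OH-G miR-483. In limma 6 of them were called lower, beside 20.4% of all tested genes. The fall was not shared by KDR (62.6 ± 0.799 and 62.0 ± 7.46 FPKM) and ERG (66.9 ± 4.35 and 72.7 ± 3.71 FPKM), which were not called. In bulk RNA, fewer cells of a type and less RNA per cell cannot be told apart. Of 4 leukocyte markers, PTPRC and CD14 were not analysed here, and CD68 and LYZ summed to 14.2 to 17.7 and 6.49 to 7.79 FPKM. Of 5 epithelial markers, EPCAM and CDH1 were not analysed here, and KRT8, KRT18 and KRT19 summed to 71.0 to 81.6 and 127 to 144 FPKM. Of 7 mural and fibroblast markers, PDGFRB and CNN1 were not analysed here, and the other 5 summed to 620 to 842 and 825 to 1018 FPKM. Nearly all of this sum was RGS5, whose name stood on more than 1 row. ACTA2 was at 1.85 ± 0.0417 and 1.82 ± 0.111 FPKM and COL3A1 at 2.33 ± 0.0651 and 1.26 ± 0.0851 FPKM. DCN and PDGFRA did not reach 1 FPKM in any library. Whether these shifts in markers contribute to the values below was not tested.

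DKK1 had levels of 6.58, 6.52 and 7.24 FPKM in the 3 miR-483 libraries and of 37.0, 37.7 and 49.9 FPKM in the 3 libraries with 8OH-G miR-483. All of the latter lay far above all of the former, and replicate 3 was the highest library of each group. The means were 6.78 ± 0.397 and 41.5 ± 7.23 FPKM (SD, n = 3 libraries per group here and below), a 6.13-fold difference. On the log2(FPKM + 1) scale used for the fit over all genes, the difference was 2.44 (SE 0.114), the 13th largest among 12216 tested genes. In relation to other genes, the mean DKK1 level was at or above that of 43.5% of tested genes with miR-483 and of 86.4% with 8OH-G miR-483.

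The promoter of DKK1 is shown because DKK1 is itself reported as a target of beta-catenin and TCF factors, and that of LRP5 because LRP5 codes for the receptor that Dickkopf 1 binds and its level differed in the other direction. The sequences are from RefSeq on GRCh38.p14, run from 250 bases before to 50 bases after the annotated start and are written 5′ to 3′ on the strand of the gene. Capitals mark matches on either strand to CTTTGNN, in which both variable bases are adenine or thymine, which covers 4 forms of the TCF and LEF recognition motif. They also mark matches on either strand to a TATA box, searched as TATAAA, and the matches do not overlap.
DKK1, chr10:52314031-52314330, plus strand: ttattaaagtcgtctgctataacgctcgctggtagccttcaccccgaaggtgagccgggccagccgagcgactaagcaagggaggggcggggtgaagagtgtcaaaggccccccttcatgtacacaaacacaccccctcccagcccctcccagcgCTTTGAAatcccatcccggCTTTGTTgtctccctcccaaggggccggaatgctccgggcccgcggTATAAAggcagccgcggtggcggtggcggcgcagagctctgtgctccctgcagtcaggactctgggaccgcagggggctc
LRP5, chr11:68312341-68312640, plus strand: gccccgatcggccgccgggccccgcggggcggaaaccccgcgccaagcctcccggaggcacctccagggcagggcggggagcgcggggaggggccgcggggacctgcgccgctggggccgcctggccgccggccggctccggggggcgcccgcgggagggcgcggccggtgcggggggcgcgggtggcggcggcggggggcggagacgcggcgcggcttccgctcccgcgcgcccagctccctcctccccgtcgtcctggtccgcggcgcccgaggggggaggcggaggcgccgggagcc

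The DKK1 window held a TCF and LEF form ending in AA, a second ending in TT and a TATA box, all on the strand of the gene, with first bases at -95, -76 and -30 from the start. Of 35116 windows of this length in the table, 4.43% held the form ending in AA on either strand, 5.20% the form ending in TT, 11.5% the TATA box and 13.8% at least 1 of the 4 TCF and LEF forms. Among 12525 windows of tested genes, the shares were 2.80%, 3.79%, 5.88% and 9.50%. The LRP5 window had no match, and its share of guanine and cytosine was 86.7%, against 63.7% for DKK1. The FZD4 and LEF1 windows had no match, and of 3 windows for TCF7L2 the middle one had a form ending in TT. The table held 5 of the 10 genes. A match is a string of letters and not a measured binding site.

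DKK3, the other Dickkopf gene with a high level, is a divergent family member that is not known as a strong ligand of LRP5 or LRP6. It stood at 99.7, 97.0 and 96.6 FPKM with miR-483 and at 118, 106 and 105 FPKM with 8OH-G miR-483. The libraries with 8OH-G miR-483 were all higher, but by far less than for DKK1, with means of 97.8 ± 1.67 and 110 ± 7.48 FPKM. The log2 difference was 0.16 (SE 0.071, 95% interval 0.003 to 0.326), and the gene was not called in the fit. It was 0.05 after median-ratio scaling and 0.10 with quantile normalization. In the summed level of DKK1, DKK3 and the Dickkopf-like gene DKKL1, DKK1 took 6.45 ± 0.423% with miR-483 and 27.3 ± 4.32% with 8OH-G miR-483, and DKK3 took 93.0 ± 0.373% and 72.3 ± 4.25%.

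**Figure D1:**
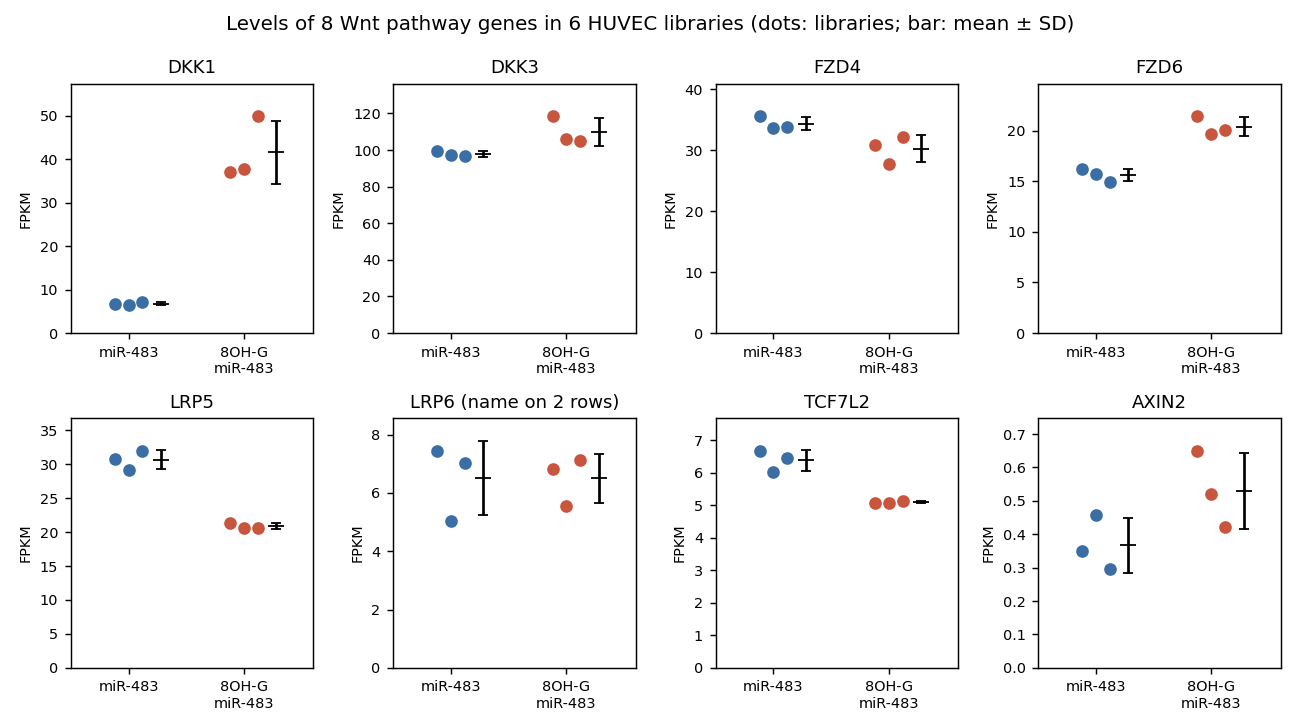
Level in FPKM (vertical axes, starting at 0) of 8 Wnt pathway genes in each library, with miR-483 in blue and 8OH-G miR-483 in red; black marks are the mean ± SD of 3 libraries. DKK1 goes from 6.78 to 41.5 FPKM on average, FZD6 is higher and LRP5 and TCF7L2 are lower with 8OH-G miR-483 with no overlap of the groups, and LRP6 and AXIN2 overlap.

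LRP5, a coreceptor for Wnt ligands and a receptor for Dickkopf 1, differed from DKK1 in direction. Its levels were 30.8, 29.2 and 32.0 FPKM with miR-483 and 21.4, 20.6 and 20.6 FPKM with 8OH-G miR-483. The groups did not overlap, and the spread within each was small beside the gap. The mean was 1.47-fold lower with 8OH-G miR-483 (30.7 ± 1.38 and 20.9 ± 0.454 FPKM), with a log2 difference of -0.53 (SE 0.063).

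LRP6, the related coreceptor, had its name on 2 rows in every library, so it was kept out of the main fit. Both rows held 1 value in 5 libraries, while in miR-483 replicate 1 one row was listed at 0 and the other at 7.44 FPKM. With the higher row, levels were 7.44, 5.05 and 7.04 FPKM with miR-483 and 6.82, 5.56 and 7.13 FPKM with 8OH-G miR-483, so the groups overlapped. The means were 6.51 ± 1.28 and 6.51 ± 0.836 FPKM. With repeated names added to the fit, the log2 difference was 0.01 (SE 0.138, 95% interval -0.31 to 0.32), which leaves room for differences of that size in either direction. LRP5 made up 82.6 ± 2.43% of the summed level of the coreceptor pair with miR-483 and 76.3 ± 2.26% with 8OH-G miR-483, and the sum itself was 37.2 ± 2.55 and 27.4 ± 1.09 FPKM.

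FZD4 codes for the frizzled receptor that also binds norrin, the ligand of retinal vessel growth. It had 35.6, 33.6 and 33.9 FPKM with miR-483 and 30.9, 27.8 and 32.2 FPKM with 8OH-G miR-483. All libraries of the second group were lower, by a margin of about the spread within it. The log2 difference was -0.18 (SE 0.072, 95% interval -0.35 to -0.01), and FZD4 was not called as deposited. It was called lower after median-ratio scaling (-0.29), with quantile normalization (-0.26) and without 8OH-G miR-483 replicate 3 (-0.22).

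FZD6, a frizzled receptor known mostly for planar polarity and non-canonical signalling, went the other way. It had 16.2, 15.7 and 14.9 FPKM with miR-483 and 21.4, 19.6 and 20.1 FPKM with 8OH-G miR-483. No value of one group reached the other, and the means of 15.6 ± 0.628 and 20.4 ± 0.945 FPKM differed 1.30-fold, with a log2 difference of 0.36 (SE 0.067). After median-ratio scaling the log2 difference of FZD6 was 0.25, and with quantile normalization it was 0.26. Over 8 frizzled genes with a row, the summed level as deposited was 54.9 ± 2.26 and 55.7 ± 3.01 FPKM, less of a gap than the spread in either group. This sum was not computed after scaling. Within that sum, FZD4 took 62.6 ± 1.14% with miR-483 and 54.3 ± 1.96% with 8OH-G miR-483, and FZD6 took 28.4 ± 0.439% and 36.6 ± 1.18%. Among these 8 genes, FZD4 and FZD6 led in every library, and FZD4 stayed above FZD6 throughout. FZD7 and FZD10 were not analysed here, so shares and ranks are not those of the whole family.

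**Figure D2:**
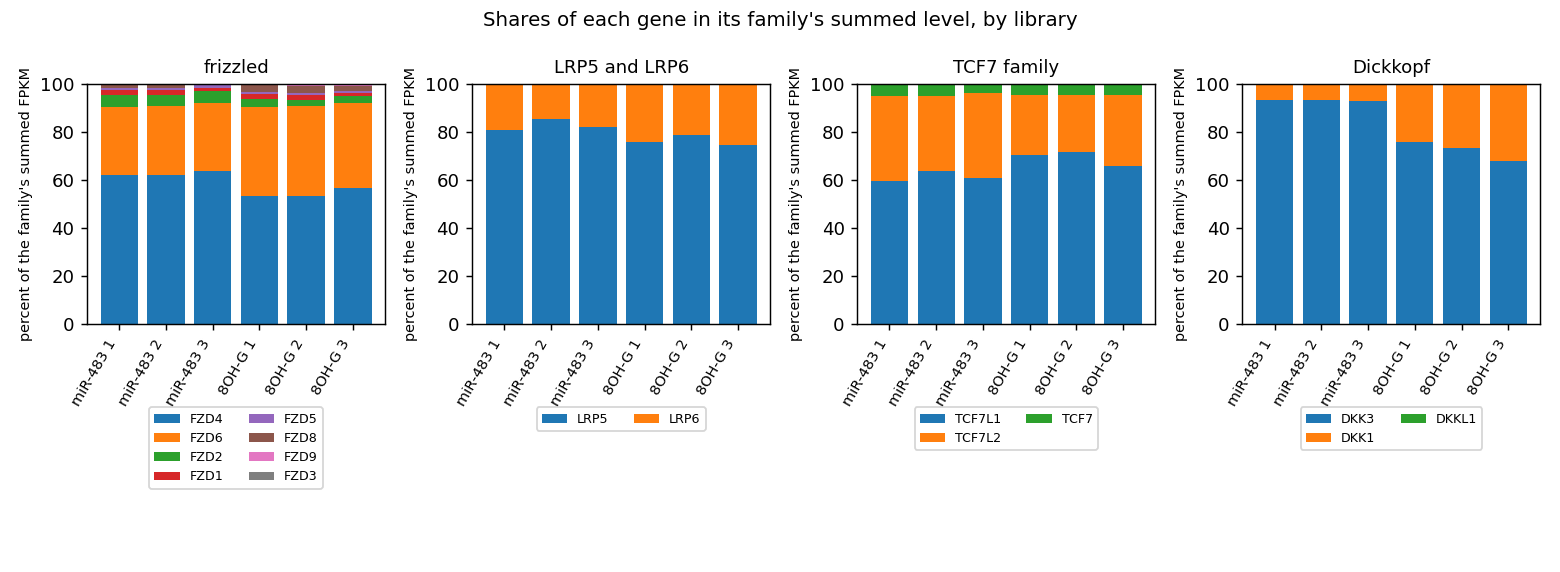
Percent of the summed FPKM of each family (vertical axes, 0 to 100) that each gene held in each library (bars; 8OH-G stands for 8OH-G miR-483). DKK1 grows from 6.45% to 27.3% of the Dickkopf sum, FZD6 from 28.4% to 36.6% of the frizzled sum, and TCF7L2 shrinks from 34.0% to 26.1% of the TCF7 sum. Each sum covers only the genes drawn, and DKK2, DKK4, FZD7 and FZD10 were not analysed here.

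TCF7L2, a transcription factor that carries beta-catenin to target genes, had 6.68, 6.04 and 6.45 FPKM with miR-483 and 5.07, 5.09 and 5.14 FPKM with 8OH-G miR-483. The second group was lower in each library and the 3 values were close together. The means were 6.39 ± 0.324 and 5.10 ± 0.0338 FPKM, with a log2 difference of -0.28 (SE 0.068). TCF7L2 accounted for 34.0 ± 2.20% of the summed level of TCF7, TCF7L1 and TCF7L2 with miR-483 and for 26.1 ± 2.86% with 8OH-G miR-483. TCF7L1, which acts mostly as a repressor, was the largest of the 3 in every library, with 61.3 ± 2.05% and 69.2 ± 3.04% of the sum.

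AXIN2, the scaffold protein gene that beta-catenin induces as negative feedback, was near the bottom of the range. It had 0.349, 0.457 and 0.296 FPKM with miR-483 and 0.650, 0.521 and 0.422 FPKM with 8OH-G miR-483, so the groups overlapped. The means were 0.367 ± 0.0819 and 0.531 ± 0.114 FPKM. No library reached 1 FPKM, so AXIN2 was outside the main fit, and in the fit without a filter its log2 difference was 0.16 (SE 0.083, 95% interval -0.03 to 0.36).

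By mean level with miR-483, the 8 genes ran in the order DKK3, FZD4, LRP5, FZD6, DKK1, LRP6, TCF7L2 and AXIN2. FZD4 and LRP5 differed by more than their spread, and DKK1, LRP6 and TCF7L2 did not. With 8OH-G miR-483 the order was DKK3, DKK1, FZD4, LRP5, FZD6, LRP6, TCF7L2 and AXIN2, where LRP5 and FZD6 lay within 1 SD of each other. Of the 6 genes in the fit, DKK1 and FZD6 were called higher, beside 35.0% of all 12216 tested genes, and LRP5 and TCF7L2 were called lower, beside 20.4%. The groups did not overlap for any of the 6, with 3 higher and 3 lower, beside 39.7% and 23.6% of all tested genes. Nothing is read from these counts, because the choice of DKK1 rested on this comparison.

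The other genes of the pathway, 122 in number and listed by role, were used to place the set. These lists were chosen with earlier results of these data known. Of these, 73 had a row and 57 passed the filter of at least 1 FPKM in at least 3 libraries. In limma with Benjamini-Hochberg adjustment over all tested genes, 16 of the 57 were called higher and 12 lower, beside 35.0% and 20.4% of all tested genes, and 29 were not called. Among the calls, FZD8, LGR4, MFSD2A and WNT2B reached 1 FPKM in 1 group only, which fixed their direction. The median log2 difference was 0.002, and 0.10 over all tested genes. After median-ratio scaling, which moved the median of all genes to -0.002 (and quantile normalization to -0.01), 11 rose and 18 fell, while quantile-normalized values gave 12 that rose and 17 that fell. Over all tested genes, those higher made up 63.2% of calls as deposited, while the 2 scalings gave 3331 higher with 3328 lower and 3295 higher with 3424 lower genes.

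Among 4 ligand genes with a row, WNT9A fell from 1.96 ± 0.272 to 0.852 ± 0.327 FPKM (adjusted p = 0.0031, limma), with 1 of 3 libraries of the second group above 1 FPKM. WNT2B was at 1.51 ± 0.125 and 0.717 ± 0.0696 FPKM, but it reached 1 FPKM in the miR-483 libraries only and so had to be lower in the others to be tested. NDP, the norrin gene, was below the filter and higher with 8OH-G miR-483 (listed at 0 in all 3 miR-483 libraries and at 0.235, 0.296 and 0.234 FPKM), and WNT3 had its name on more than 1 row. The genes for ligand release did not pass. WLS, which carries Wnt proteins to the cell surface, was at 53.1 ± 2.55 and 50.1 ± 1.18 FPKM, and PORCN, which attaches their lipid, at 6.33 ± 0.623 and 5.22 ± 0.726 FPKM. Both were called lower after median-ratio scaling (adjusted p = 0.0288 and 0.0231, limma), and PORCN also without 8OH-G miR-483 replicate 1 (adjusted p = 0.0245, limma).

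Of 10 other receptors and coreceptors, 3 were called higher and 5 lower, beside 35.0% and 20.4% of all tested genes. PTK7, a pseudokinase coreceptor of planar polarity signalling, fell from 17.2 ± 0.827 to 10.8 ± 1.32 FPKM, a log2 difference of -0.63 (SE 0.093, adjusted p = 0.000537, limma). ADGRA2, which with RECK makes endothelial cells sensitive to Wnt7 ligands, fell from 20.6 ± 0.311 to 13.8 ± 1.18 FPKM, and LRP4 from 2.82 ± 0.154 to 1.77 ± 0.0520 FPKM. FZD2 and TSPAN12, the latter a partner of FZD4 in norrin signalling, made up the 5. The call of TSPAN12 (adjusted p = 0.0328, limma) was lost when any library but miR-483 replicate 1 was left out (adjusted p from 0.0568 to 0.125, limma). ROR1, a receptor kinase for Wnt5a, rose from 1.75 ± 0.272 to 3.20 ± 0.520 FPKM. CKAP4, reported as a cell surface receptor of Dickkopf 1, had the highest level of the list and rose from 111 ± 4.44 to 138 ± 3.96 FPKM (log2 difference 0.31, SE 0.066, adjusted p = 0.00378, limma). FZD8 was at 0.724, 0.694 and 0 FPKM with miR-483 and at 1.65, 1.55 and 1.16 FPKM with 8OH-G miR-483. Only the second group reached 1 FPKM, so FZD8 had to be higher there to be tested, and its call is a description. The call was lost with a pseudocount of 0.1 (adjusted p = 0.105, limma). With a mean over all libraries of 0.963 FPKM, FZD8 was outside the fit that required a mean of at least 1 FPKM.

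The extracellular inhibitors and the R-spondin axis each had 1 tested gene. SFRP1, a secreted decoy that binds Wnt proteins, rose from 2.94 ± 0.275 to 5.41 ± 0.352 FPKM, a log2 difference of 0.70 (SE 0.084, adjusted p = 0.000161, limma). LGR4, a receptor for R-spondins, which enhance Wnt signalling, went from 0.762 ± 0.0753 to 1.53 ± 0.119 FPKM. It passed the filter through the 8OH-G miR-483 libraries alone and had to be higher there to be tested, so no test is given.

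In the list of 14 Dishevelled and destruction complex genes, 2 were called higher and 1 lower, beside 35.0% and 20.4% of all tested genes. The other 11 did not pass. The casein kinase gene CSNK1E, the highest of the list, was at 98.5 ± 4.05 and 92.0 ± 3.85 FPKM, and was called lower after median-ratio scaling (adjusted p = 0.0245, limma). BTRC, the ubiquitin ligase adaptor that recognises marked beta-catenin, fell from 7.34 ± 0.420 to 5.39 ± 0.230 FPKM (adjusted p = 0.00195, limma), while its paralog FBXW11 rose from 17.2 ± 1.06 to 21.0 ± 1.49 FPKM (adjusted p = 0.0168, limma). APC, the scaffold of the complex, rose from 7.06 ± 1.07 to 9.96 ± 2.00 FPKM (adjusted p = 0.034, limma) with overlapping groups. The calls of FBXW11 and APC did not hold with median-ratio scaling (adjusted p = 0.112 and 0.0904, limma). That of FBXW11 was also lost without replicate 2 of miR-483 or replicate 1 of 8OH-G miR-483 (adjusted p = 0.0583 and 0.0629, limma), and that of APC without replicate 2 or 3 of miR-483 or replicate 1 or 3 of 8OH-G miR-483 (adjusted p from 0.063 to 0.11, limma).

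**Figure D3:**
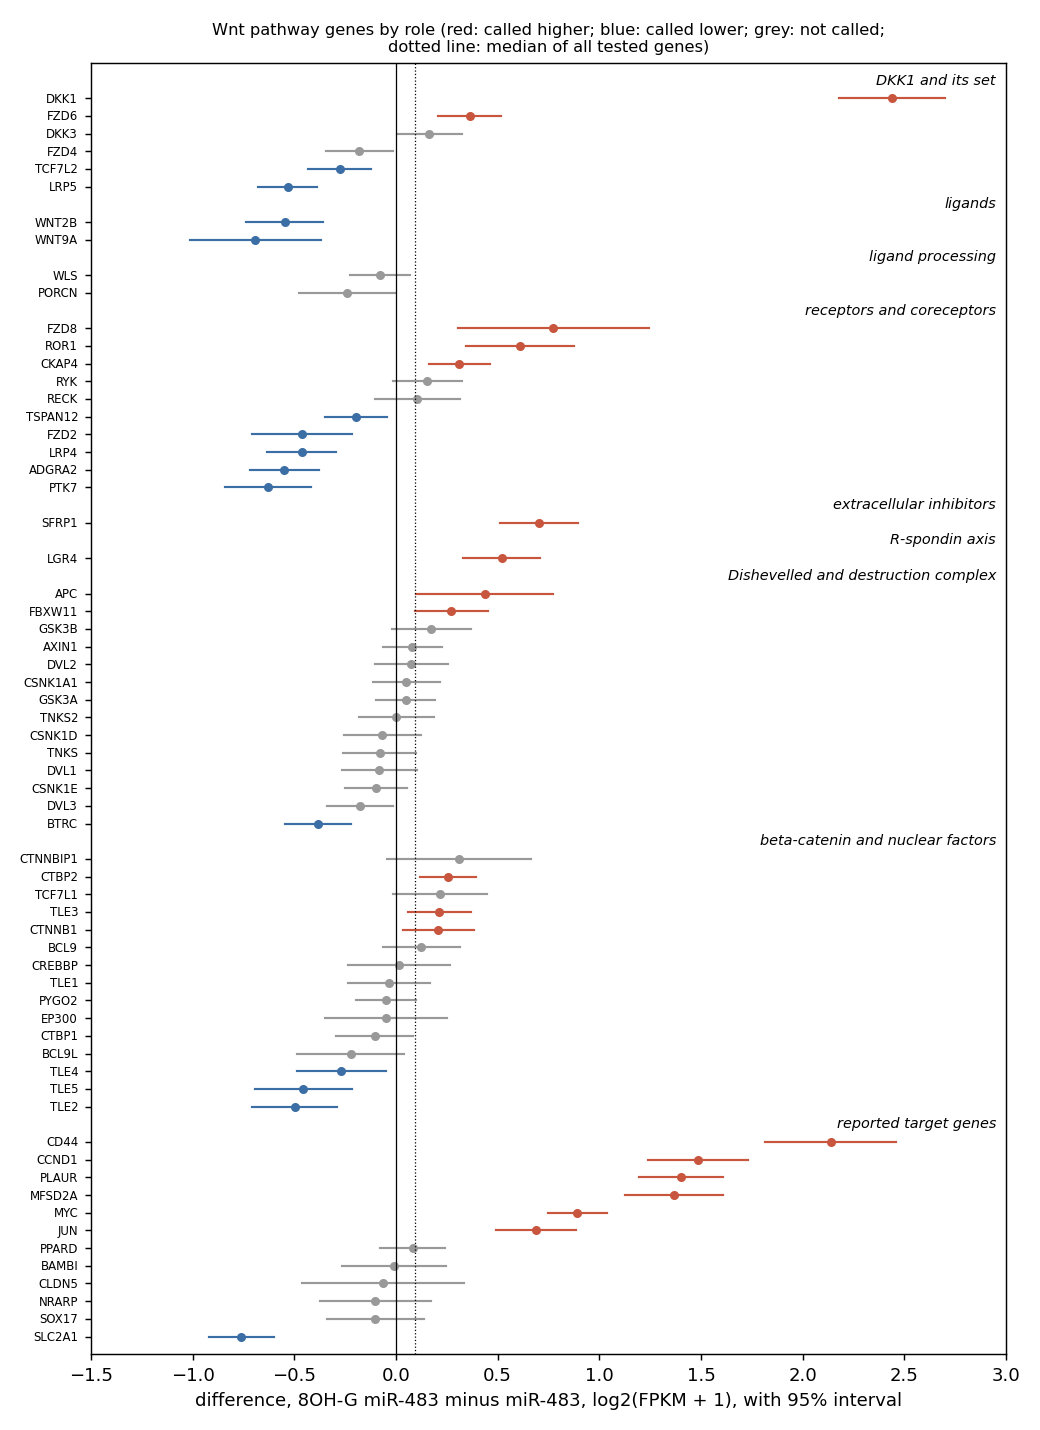
Difference between the groups on the log2(FPKM + 1) scale, positive where 8OH-G miR-483 was higher (horizontal axis) with its 95% interval from limma, for 6 genes of the set and 57 other Wnt pathway genes grouped by role (vertical axis). Red was called higher, blue lower and grey not called; most genes lie between -1 and 1, DKK1 (2.44) and CD44 (2.14) lie farthest to the right, and the dotted line is the median of all tested genes (0.10).

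Of 15 genes for beta-catenin and its nuclear partners, 3 were called higher and 3 lower, beside 35.0% and 20.4% of all tested genes. Genes of the Groucho family were split. TLE5, the short form with the highest level of the list, fell from 268 ± 14.7 to 196 ± 25.6 FPKM (adjusted p = 0.00591, limma). TLE2 fell from 19.1 ± 0.328 to 13.3 ± 1.64 FPKM (adjusted p = 0.00174, limma) and TLE4 from 6.20 ± 0.0938 to 5.01 ± 0.741 FPKM. TLE3 rose from 13.0 ± 0.788 to 15.3 ± 0.370 FPKM, and TLE1 (18.8 ± 0.853 and 18.4 ± 2.04 FPKM) was not called. The corepressor gene CTBP2 rose from 23.1 ± 0.734 to 27.8 ± 0.478 FPKM (adjusted p = 0.00685, limma). CTNNB1, which codes for beta-catenin, rose from 91.8 ± 3.16 to 106 ± 8.15 FPKM, with an adjusted p = 0.0452 in limma. After median-ratio scaling CTNNB1, TLE3 and CTBP2 did not pass (adjusted p = 0.311, 0.215 and 0.0666, limma). CTNNB1 also did not pass when any library but 8OH-G miR-483 replicate 3 was left out (adjusted p from 0.0638 to 0.154, limma). TLE4 did not pass when any library but 8OH-G miR-483 replicate 1 was left out (adjusted p from 0.0707 to 0.111, limma). TLE3 did not pass without replicate 1 or 3 of either group (adjusted p from 0.0594 to 0.0972, limma).

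Of 12 genes reported elsewhere as Wnt targets, 6 were called higher and 1 lower, beside 35.0% and 20.4% of all tested genes, and 5 did not pass. Their median log2 difference was 0.39, and 0.10 over all tested genes. This list was chosen with earlier results of these data known, so its counts, median and adjusted p-values are a description. CD44, a hyaluronan receptor, had 22.4, 22.8 and 22.7 FPKM with miR-483 and 94.5, 86.9 and 133 FPKM with 8OH-G miR-483, a 4.63-fold higher mean (log2 difference 2.14, SE 0.140, adjusted p = 7.03e-06, limma). CCND1, which codes for cyclin D1, rose from 39.6 ± 1.21 to 113 ± 18.3 FPKM, and PLAUR, the urokinase receptor, from 24.3 ± 2.83 to 65.4 ± 2.67 FPKM. MYC and JUN also rose. MFSD2A, the last of the 6, reached 1 FPKM with 8OH-G miR-483 only and so had to be higher there to be tested. SLC2A1, the glucose transporter of the barrier endothelium, fell from 20.3 ± 0.841 to 11.6 ± 0.684 FPKM (adjusted p = 3.94e-05, limma). The barrier and arterial genes CLDN5 (24.0 ± 1.40 and 23.4 ± 6.28 FPKM) and SOX17 (13.0 ± 0.833 and 12.1 ± 1.71 FPKM), picked after their values were seen, did not pass. These genes are also known to have many regulators other than beta-catenin.

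The 5 tested genes outside the pathway lists whose profile over the 6 libraries was most like that of DKK1 were ANLN, FST, PLK1, CDC6 and CCNB1. Likeness was the root mean square distance between log2(FPKM + 1) profiles, each centred on its mean, and ran from 0.045 for ANLN to 0.099 for CCNB1. ANLN, the cytokinesis scaffold anillin, had 5.57, 5.28 and 6.08 FPKM with miR-483 and 30.9, 29.4 and 41.7 FPKM with 8OH-G miR-483, and so shared the high value of replicate 3 in both groups. FST, the activin antagonist follistatin, was at 0.479 ± 0.0882 and 6.51 ± 1.30 FPKM. PLK1 (a mitotic kinase, 5.61-fold), CDC6 (a replication licensing factor, 10.3-fold) and CCNB1 (cyclin B1, 5.19-fold) were higher in mean FPKM as well. These genes were picked for a profile that separates the groups, and FST and CDC6 passed the filter through the 8OH-G miR-483 libraries alone, so their differences are a description, and the distance is over 6 libraries in 2 groups.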

How the data were processed

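The 6 HUVEC libraries, 3 for each form of miR-483, were grouped by their titles. The tools cutadapt, STAR, HTSeq and DESeq2 and the build hg19 are listed in the submitters' processing notes, with no versions or roles. The deposited values were taken as FPKM made by the authors. No label or header names the unit, and it was inferred from decimal values and totals above what TPM or CPM can reach. Whole reads were not recovered: among 1726 low genes of miR-483 replicates 2 and 3, 24.2% of value ratios lay near a ratio of whole numbers at the best depth ratio and 20.3% at the median one. The files have 20792 rows, and 748 names on 3204 rows were left out of the main fit as repeated. In miR-483 replicate 1, 14 of these names held a single value on all their rows, while in each other library all 748 did. Why this file differs is unknown. Where repeated names were used, the highest row was taken.

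A count test had been planned if the files held counts, so limma 3.58.1 in R 4.3.3 was used on log2(FPKM + 1), with trend and robust shrinkage, group as the only term and Benjamini-Hochberg adjustment at 0.05, for 12216 genes that reached 1 FPKM in 3 or more libraries. Differences are positive where 8OH-G miR-483 was higher, and this scale understates changes of low genes. Folds are ratios of mean FPKM. The fit was tested on simulated data. Genes and lists were chosen with earlier results of these data known. Named genes were the set itself, up to 3 called genes per list and direction, the highest gene of each list, all genes of lists with up to 3 tested, and the 5 nearest to DKK1; others, named to complete a count or as examples, were chosen after their values were seen. Older symbols were matched (TLE5 as AES). How strand and multi-mapped reads were handled is not given, so genes with close paralogs or overlapping neighbours are uncertain. Whether replicate numbers pair the libraries is unknown, and the main fit did not use them. Promoters came from RefSeq on GRCh38.p14, not the build of the files, and were used as sequences only. Figures were drawn with matplotlib 3.10.9 in Python 3.11.15.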

Additional observations from a re-analysis of the deposited data

How the results depend on the processing

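Results were recomputed with a pseudocount of 0.1, without a filter, with a mean of at least 1 FPKM, with a replicate block, after median-ratio scaling and quantile normalization, with repeated names, without trend or robust shrinkage and without each library. With the replicate block, where DKK3 was also called higher and FZD4 lower, 7312 genes were called in all, against 6772 without it. The correlation of deviations between same-numbered libraries was 0.025, 0.339 and 0.009, and between other pairs it ran from -0.266 to 0.244. With 3 libraries per group, these values cannot settle whether the numbers pair the libraries. Without each library in turn, 5859 to 6479 genes were called, with 12 to 16 other Wnt genes higher and 10 to 12 lower. Over 37 named genes and 14 alternatives, 472 of 517 values kept direction and call, 34 lost the call, 11 gained it and none changed sign. Many of these genes were chosen for their call or difference in these same libraries, so the tally says little about other genes. Apart from the calls given in the text, those of APC (adjusted p = 0.0502), CTNNB1 (0.0575) and TLE4 (0.0541) were lost in limma without a filter, that of CTNNB1 without trend or robust shrinkage (0.0523), and those of APC (0.132), FBXW11 (0.094), TLE3 (0.256) and CTNNB1 (0.0629) after quantile normalization, and PORCN was called lower after quantile normalization (0.0101) and with the replicate block (0.0192); the cause was not tested. The planned comparison of seed sites between longer and shorter 3′ UTRs was not run. Precision at low FPKM cannot be given, as depth is unknown.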

Other observations

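Wnt genes below the filter were also described. Of 15 other pathway genes with a row of their own that did not reach 1 FPKM in 3 libraries, 5 were called higher, 1 lower and 9 not at all by limma without a filter, beside 26.7% higher and 15.9% lower among all 17579 genes of that fit. The genes below were picked after their values were seen. ZNRF3, a ubiquitin ligase that removes frizzled receptors from the cell surface and is itself induced by Wnt signalling, had 0.244, 0.269 and 0.282 FPKM with miR-483 and 0.981, 1.01 and 0.972 FPKM with 8OH-G miR-483. The spread within each group was small beside the gap, and the log2 difference was 0.65 (SE 0.065, adjusted p = 0.000139, limma without a filter). TNFRSF19, a receptor reported as a Wnt target, went from 0.150 ± 0.0388 to 0.409 ± 0.0428 FPKM (adjusted p = 0.00696, limma without a filter). NDP, given above, PYGO1, a nuclear cofactor of beta-catenin, and the protease gene MMP7 were the other genes called higher, and TRABD2A, a protease that inactivates Wnt proteins, was called lower, from 0.446 ± 0.315 to 0.0613 ± 0.0494 FPKM. With read depth unknown, the counting error behind values this low cannot be given.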
